A study of Mus musculus with 6 samples.

Results

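The mitosis and spindle genes described here are 52 genes whose products start mitosis, build the spindle, attach chromosomes to it, check the attachment and split the cell. They were taken by gene symbol, and all 52 were among the 16135 genes listed in any of 6 RNA-seq libraries. The cells were common dendritic cell progenitors, which live in bone marrow and feed the dendritic cell lineage, from wildtype C57BL/6 mice aged 6 to 8 weeks. They were sorted by flow cytometry into CD115-Ly6C-, CD115+Ly6C+ and CD115+Ly6C- progenitors, with 2 libraries each, and no treatment is named in the labels. CD115, encoded by Csf1r, is a receptor for macrophage colony-stimulating factor, while Ly6C is found on monocytes and their precursors. Whether the 2 libraries of a subset stem from different mice or sorts is not in the labels, so the p-values reflect the spread between libraries alone, which may be technical. The question the design poses is how the 3 subsets differ in their transcriptomes.

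A dividing cell raises the transcripts of these genes in G2 phase and mitosis and loses them again after division, whereas the genes of DNA replication peak earlier, around the entry into S phase. Many of the late genes are switched on by the MuvB complex together with B-Myb and FoxM1, and are held down in resting cells by the DREAM complex, which shares the MuvB core. Progenitors of bone marrow divide as they differentiate, so the summed level of these genes is often read as a proliferation signature.

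All 52 genes had reads in every library and all passed the filter on low counts. Library totals lay between 17961541 and 19450329 expected counts (the estimated read counts that RSEM gives), and the lowest count of any member in any library was 233, for Cdc25c. Libraries within a subset were no duplicates of one another, with a chi-square per degree of freedom of 19.6 to 22.3. Of the 11 genes that mark common dendritic cell progenitors, all 11 were tested, and they summed to 4503 and 4787 CPM in CD115-Ly6C-, 4630 and 4421 CPM in CD115+Ly6C+ and 4545 and 4963 CPM in CD115+Ly6C-. CPM here are counts set to a common library size after TMM, a scaling that centres most genes on no change. These sums cover moves in both directions, as 3 of the 11 (Flt3, Kit and Id2) rose and 2 (Csf1r and Spi1) fell in CD115-Ly6C- against CD115+Ly6C-, and 5 rose and 5 fell against CD115+Ly6C+. By edgeR (adjusted p = 0.00353 and 2.63e-05), Flt3, the receptor that dendritic cell progenitors need, was higher in CD115-Ly6C- by log2 fold changes of 0.74 against CD115+Ly6C- and 1.62 against CD115+Ly6C+. The opposite held for Csf1r, the gene of the sorted CD115, with a log2 fold change of -0.97 against CD115+Ly6C- and -1.20 against CD115+Ly6C+ (edgeR adjusted p = 0.00377 and 4.00e-04). In bulk libraries, fewer cells of a kind and less RNA per cell cannot be told apart.

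Mitosis and spindle genes were lower in CD115-Ly6C- than in either CD115+ subset. Against CD115+Ly6C-, 47 of 52 fell and 0 rose, with a median log2 fold change of -0.99, that is, a level 1.99-fold lower. Over all 12127 genes tested, 6.78% fell and 8.43% rose in the same comparison, and their median was 0.02. Against CD115+Ly6C+, 50 of 52 fell and 0 rose, with a median of -1.21, a level 2.32-fold lower, where 19.2% of all genes fell, 20.1% rose and the median was 0.03. The test was edgeR's quasi-likelihood F test at an adjusted p under 0.05. At an unadjusted p under 0.05, 0 of 52 were higher in CD115-Ly6C- against CD115+Ly6C-, where 2033 of all 12127 genes were. Against CD115+Ly6C+, 0 of 52 were higher, where 3029 of all genes were. DESeq2 and limma on log2(FPKM + 1) also called 0 of 52 higher in either comparison. Of all genes, DESeq2 called 1171 and 2301 higher against CD115+Ly6C- and CD115+Ly6C+, and limma called 1221 and 3025.

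Every member pointed the same way. All 52 log2 fold changes were negative in both comparisons, from -1.38 (Ccnb1) to -0.22 (Espl1) against CD115+Ly6C- and from -1.82 (Ube2c) to -0.24 (Espl1) against CD115+Ly6C+. Both libraries of CD115-Ly6C- lay below both libraries of CD115+Ly6C- for 51 of 52 genes, where 29.8% of all genes did, and below both libraries of CD115+Ly6C+ for 51 of 52, where 34.8% did. The comparisons share the CD115-Ly6C- libraries, so they are not separate evidence. Scaling by library totals in place of TMM put the median of all genes at 0.14 and 0.22, and that of the members at -0.87 and -1.02. It also moved the calls over all genes to 1383 higher and 479 lower against CD115+Ly6C-, where TMM gave 1022 and 822, and to 3504 higher and 1518 lower against CD115+Ly6C+, where TMM gave 2435 and 2333. The members' counts were 47 and 49 lower with library totals.

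**Figure D1:**
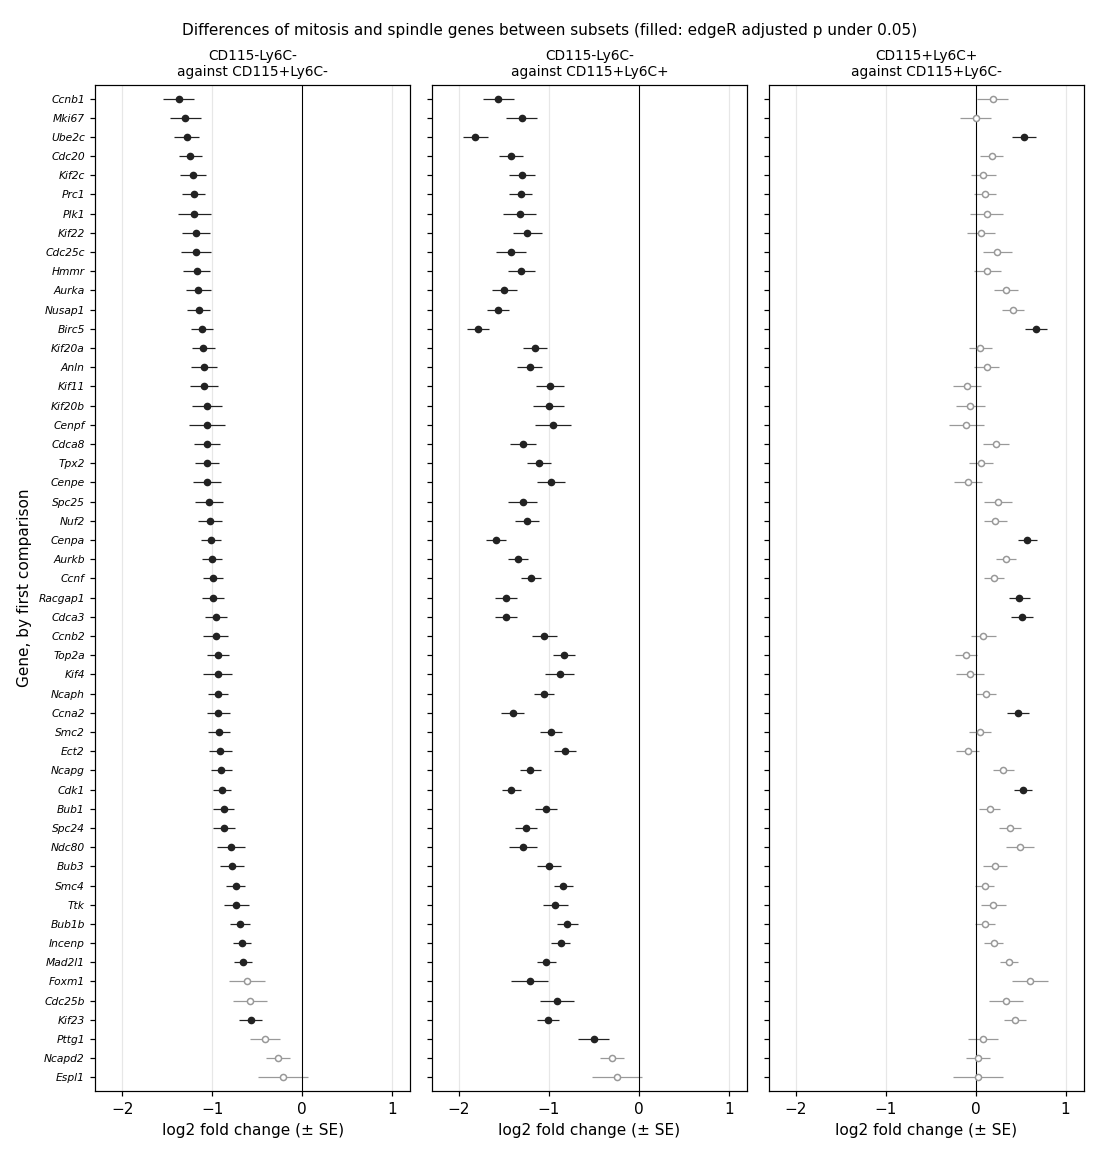
Log2 fold change of each of the 52 genes (rows, ordered by the first comparison) in the 3 comparisons (panels), with horizontal bars for ± SE and filled points for an edgeR adjusted p under 0.05. In the left and middle panels every point lies left of 0 and 47 and 50 are filled, and in the right panel 7 are filled, all to the right of 0.

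As a share of all expected counts, the 52 genes held 0.681% and 0.772% of them in CD115-Ly6C-, 1.44% and 1.42% of them in CD115+Ly6C+ and 1.37% and 1.25% of them in CD115+Ly6C-. Summed, they reached 6249 and 7285 CPM in CD115-Ly6C-, 15140 and 15284 CPM in CD115+Ly6C+ and 13950 and 12576 CPM in CD115+Ly6C-. The libraries of CD115-Ly6C- stood far below the other 4, while the CD115+ subsets lay close together without overlapping.

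The CD115+ subsets differed in fewer of these genes. In CD115+Ly6C+ against CD115+Ly6C-, 7 of 52 rose (Cdk1, Ccna2, Birc5, Ube2c, Cdca3, Cenpa and Racgap1) and 0 fell, where 5.26% of all genes rose, 4.34% fell and 9.6% changed in either direction. The members' median was 0.18, against -0.01 for all genes. Both CD115+Ly6C+ libraries lay above both CD115+Ly6C- libraries for 30 of 52 members, where 28.8% of all genes did, and below them for 0, where 28.4% did. At an unadjusted p under 0.05, 16 of 52 were higher and 0 lower, where 14.2% and 13.7% of all genes were. With DESeq2, 14 rose and 0 fell, where 952 of all genes rose and 739 fell. With limma on log2(FPKM + 1), 5 rose and 0 fell, where 587 of all genes rose and 610 fell. Most of these calls were lost when a compared library was left out. A subset then keeps only 1 library, so this loss cannot be told apart from lost power. The members' median was 0.27 without CD115+Ly6C- replicate 1 and 0.094 without CD115+Ly6C- replicate 2. It was 0.19 without CD115+Ly6C+ replicate 1 and 0.14 without CD115+Ly6C+ replicate 2. Library totals left 4 higher, and split all calls into 485 higher and 777 lower, against 638 and 526 with TMM.

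Those 7 genes changed in all 3 comparisons, and all 7 were lowest in CD115-Ly6C- and highest in CD115+Ly6C+. Cdk1 (Entrez gene 12534, chromosome 10, 69335146 to 69352912 of GRCm38), the kinase that drives entry into mitosis, had 121 and 133 CPM in CD115-Ly6C-, 343 and 336 CPM in CD115+Ly6C+ and 241 and 231 CPM in CD115+Ly6C-. Relative to CD115+Ly6C-, Cdk1 in CD115-Ly6C- had a log2 fold change of -0.89 (SE 0.10), relative to CD115+Ly6C+ one of -1.42 (SE 0.10), and in CD115+Ly6C+ relative to CD115+Ly6C- it had one of 0.52 (SE 0.10), with edgeR adjusted p-values of 0.00178, 4.37e-05 and 0.0188. Within each subset its 2 libraries agreed closely and no library of one subset reached those of another. Birc5 (Entrez gene 11799, chromosome 11, 117849237 to 117855743), which encodes survivin of the chromosomal passenger complex, had 146 and 168 CPM in CD115-Ly6C-, 501 and 585 CPM in CD115+Ly6C+ and 351 and 329.6 CPM in CD115+Ly6C-, and its log2 fold changes in the same order were -1.12 (SE 0.12), -1.79 (SE 0.13) and 0.67 (SE 0.12) (edgeR adjusted p = 0.00152, 4.00e-05 and 0.0153). Cenpa (Entrez gene 12615, chromosome 5, 30666877 to 30674837), the histone H3 variant that marks centromeres, had 89.7 and 102 CPM in CD115-Ly6C-, 290.1 and 287 CPM in CD115+Ly6C+ and 187 and 201 CPM in CD115+Ly6C-, with -1.01 (SE 0.11), -1.59 (SE 0.11) and 0.58 (SE 0.11) (edgeR adjusted p = 0.00138, 3.93e-05 and 0.0173). Birc5 and Cenpa libraries did not overlap between subsets either.

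Ube2c (Entrez gene 68612, chromosome 2, 164769929 to 164772902), the ubiquitin-conjugating enzyme that starts chains for the anaphase promoting complex, had the largest fall of all members against CD115+Ly6C+. It stood at 70.7 and 87.6 CPM in CD115-Ly6C-, 303 and 257 CPM in CD115+Ly6C+ and 189 and 197 CPM in CD115+Ly6C-, with log2 fold changes of -1.29 (SE 0.14) and -1.82 (SE 0.14) in CD115-Ly6C- against CD115+Ly6C- and CD115+Ly6C+, and 0.54 (SE 0.13) between the CD115+ subsets (edgeR adjusted p = 0.00136, 4.89e-05 and 0.0417). Ccna2 (Entrez gene 12428, chromosome 3, 36564865 to 36573038), the cyclin of S and G2 phase, had 209.6 and 218 CPM in CD115-Ly6C-, 628 and 504 CPM in CD115+Ly6C+ and 405 and 413 CPM in CD115+Ly6C-. Its rise in CD115+Ly6C+ against CD115+Ly6C- sat closest to the threshold, at 0.47 (SE 0.12) with an edgeR adjusted p of 0.0489. Racgap1 (Entrez gene 26934, chromosome 15, 99620496 to 99651656), a subunit of the centralspindlin complex that organises cytokinesis, had 176 and 204 CPM in CD115-Ly6C-, 565 and 493 CPM in CD115+Ly6C+ and 384 and 371 CPM in CD115+Ly6C-. Cdca3 (Entrez gene 14793, chromosome 6, 124829530 to 124833701), an adaptor of a ubiquitin ligase that helps cells enter mitosis, had 63.5 and 74.3 CPM in CD115-Ly6C-, 206 and 179 CPM in CD115+Ly6C+ and 133 and 135 CPM in CD115+Ly6C-. Between the CD115+ subsets their log2 fold changes were 0.49 (SE 0.12) and 0.52 (SE 0.12) (edgeR adjusted p = 0.0397 and 0.0337).

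The 7 genes had a median transcript length of 1488 bases (948 to 3376), against 3099 for the other 45 members, and over all genes tested the log2 fold change of CD115+Ly6C+ against CD115+Ly6C- ran against length (Spearman rho -0.33 across genes, which are not independent). Of 4 equal bins by length, the shortest genes had a median of 0.22 and the longest one of -0.20. With the length trend taken out, 4 of 52 rose, of which Cdk1, Ccna2 and Racgap1 were among the 7 and Kif23 was not, and the edgeR adjusted p was 0.0796 for Birc5 and 0.287 for Ube2c. The trend ran the other way in the remaining comparisons, with rho 0.18 in CD115-Ly6C- against CD115+Ly6C- and 0.33 in CD115-Ly6C- against CD115+Ly6C+. There, 48 and 50 of 52 fell with the trend taken out, and the medians were -1.005 and -1.28.

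Promoters are shown for 6 of the 7, because these genes changed in all comparisons and late cell cycle genes are known to share 2 kinds of element near their start. One is the cell cycle genes homology region, searched as TTTGAA or TTCGAA, to which the MuvB complex binds, and the other is CCAAT, bound by NF-Y. The sequences are RefSeq's for GRCm38.p6, each 200 bases long on the gene's own strand, from 170 bases before the annotated start to 30 bases after it. The windows are chr5:30666716-30666915 (plus strand) for Cenpa, chr11:117849067-117849266 (plus) for Birc5, chr10:69352883-69353082 (minus) for Cdk1, chr2:164769759-164769958 (plus) for Ube2c, chr15:99651627-99651826 (minus) for Racgap1 and chr6:124830006-124830205 (plus) for Cdca3. For Cdca3 the start in the promoter table lies inside the gene span given above, downstream of that span's first base. Capitals mark a motif on either strand, so TTCAAA is TTTGAA and ATTGG is CCAAT read from the other strand.
Cenpa: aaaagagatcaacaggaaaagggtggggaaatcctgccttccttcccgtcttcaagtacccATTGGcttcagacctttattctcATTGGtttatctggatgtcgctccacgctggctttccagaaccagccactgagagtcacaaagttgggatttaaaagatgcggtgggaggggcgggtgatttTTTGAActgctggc
Birc5: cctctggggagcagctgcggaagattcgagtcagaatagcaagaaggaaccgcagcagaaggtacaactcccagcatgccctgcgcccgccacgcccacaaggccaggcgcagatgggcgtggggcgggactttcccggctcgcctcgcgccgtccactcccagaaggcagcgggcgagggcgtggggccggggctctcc
Cdk1: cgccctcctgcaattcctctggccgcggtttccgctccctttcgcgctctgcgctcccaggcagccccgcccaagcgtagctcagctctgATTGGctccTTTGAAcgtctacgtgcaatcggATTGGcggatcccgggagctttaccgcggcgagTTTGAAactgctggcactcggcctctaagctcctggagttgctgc
Ube2c: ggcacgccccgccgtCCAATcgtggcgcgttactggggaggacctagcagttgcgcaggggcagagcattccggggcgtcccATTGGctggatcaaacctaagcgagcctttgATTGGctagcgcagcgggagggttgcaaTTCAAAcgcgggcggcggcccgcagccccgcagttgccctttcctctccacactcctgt
Racgap1: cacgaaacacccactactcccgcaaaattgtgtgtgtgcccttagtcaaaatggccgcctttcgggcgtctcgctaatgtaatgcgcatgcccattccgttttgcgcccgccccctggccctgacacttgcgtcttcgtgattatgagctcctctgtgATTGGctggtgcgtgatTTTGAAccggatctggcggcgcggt
Cdca3: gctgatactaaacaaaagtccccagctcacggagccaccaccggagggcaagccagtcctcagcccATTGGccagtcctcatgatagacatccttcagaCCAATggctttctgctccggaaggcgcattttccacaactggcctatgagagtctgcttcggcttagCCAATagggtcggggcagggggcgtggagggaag

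In these windows Cdk1 held 2 matches to TTTGAA and 2 to CCAAT, Cenpa held 1 and 2, Ube2c 1 and 3, and Racgap1 1 and 1. Cdca3 held 3 matches to CCAAT, and its 1 match to TTTGAA lies just past the printed end, within 50 bases after the start. The Birc5 window held neither, which says only that these letters are not in this stretch. Of the 52 genes, 43 had an entry in the promoter table, with 46 windows of 250 bases before to 50 bases after a start. TTTGAA or TTCGAA occurred on either strand in 38 of the 46 windows (82.6%), against 19.2% of all 32851 windows in the table. Within 50 bases of the start the share was 73.9% for the members and 5.31% for all. CCAAT occurred in 36 windows (78.3%), against 37.4% of all, and at least 2 copies in 24 (52.2%), against 11.7%. Both kinds of motif stood together in 34 member windows (73.9%), against 7.52% of all. No motif overlaps the other in letters, several windows belong to the same gene, and a match is a description of the sequence, not evidence of binding in these cells.

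The genes that start mitosis were lower in CD115-Ly6C- throughout, as 7 of 8 fell against CD115+Ly6C- and 8 of 8 against CD115+Ly6C+, with medians of -0.98 and -1.36. Ccnb1 (Entrez gene 268697, chromosome 13, 100778739 to 100786486), the B-type cyclin that activates Cdk1 at mitotic entry, had 161 and 236 CPM in CD115-Ly6C-, 569 and 605 CPM in CD115+Ly6C+ and 545 and 485 CPM in CD115+Ly6C-. Both CD115-Ly6C- libraries lay far below all 4 others. Its log2 fold changes were -1.38 (SE 0.17) against CD115+Ly6C- and -1.56 (SE 0.17) against CD115+Ly6C+ (edgeR adjusted p = 0.00245 and 3.00e-04). Ccnb2, its paralog, had 184 and 226 CPM in CD115-Ly6C-, 393 and 456 CPM in CD115+Ly6C+ and 423 and 376 CPM in CD115+Ly6C-, and Ccnf, a cyclin that serves as the F-box subunit of a ubiquitin ligase, had 94.6 and 109 CPM in CD115-Ly6C-, 241 and 228 CPM in CD115+Ly6C+ and 201 and 205 CPM in CD115+Ly6C-. Plk1, the polo-like kinase of mitotic entry, spindle poles and cytokinesis, had 57.4 and 89.4 CPM in CD115-Ly6C-, 182 and 186 CPM in CD115+Ly6C+ and 177 and 161 CPM in CD115+Ly6C-. For all 3 the CD115-Ly6C- libraries lay below the other 4, and the CD115+ subsets did not differ past the threshold (edgeR adjusted p = 0.713, 0.256 and 0.699). Cdc25c and Cdc25b encode phosphatases that remove the inhibitory phosphates of Cdk1. Cdc25c was low, at 14.2 and 11.6 CPM in CD115-Ly6C-, 35.3 and 33.9 CPM in CD115+Ly6C+ and 31.3 and 27.2 CPM in CD115+Ly6C-, and fell against both. Cdc25b had 26.3 and 24.9 CPM in CD115-Ly6C-, 56.4 and 40.1 CPM in CD115+Ly6C+ and 34.1 and 42.3 CPM in CD115+Ly6C-. It fell against CD115+Ly6C+, with a log2 fold change of -0.91 (SE 0.19) (edgeR adjusted p = 0.00606). Against CD115+Ly6C- the log2 fold change was -0.58 (SE 0.19) (edgeR adjusted p = 0.0735), which did not pass but did with DESeq2, with no count filter and in a fit of the 4 libraries compared.

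**Figure D2:**
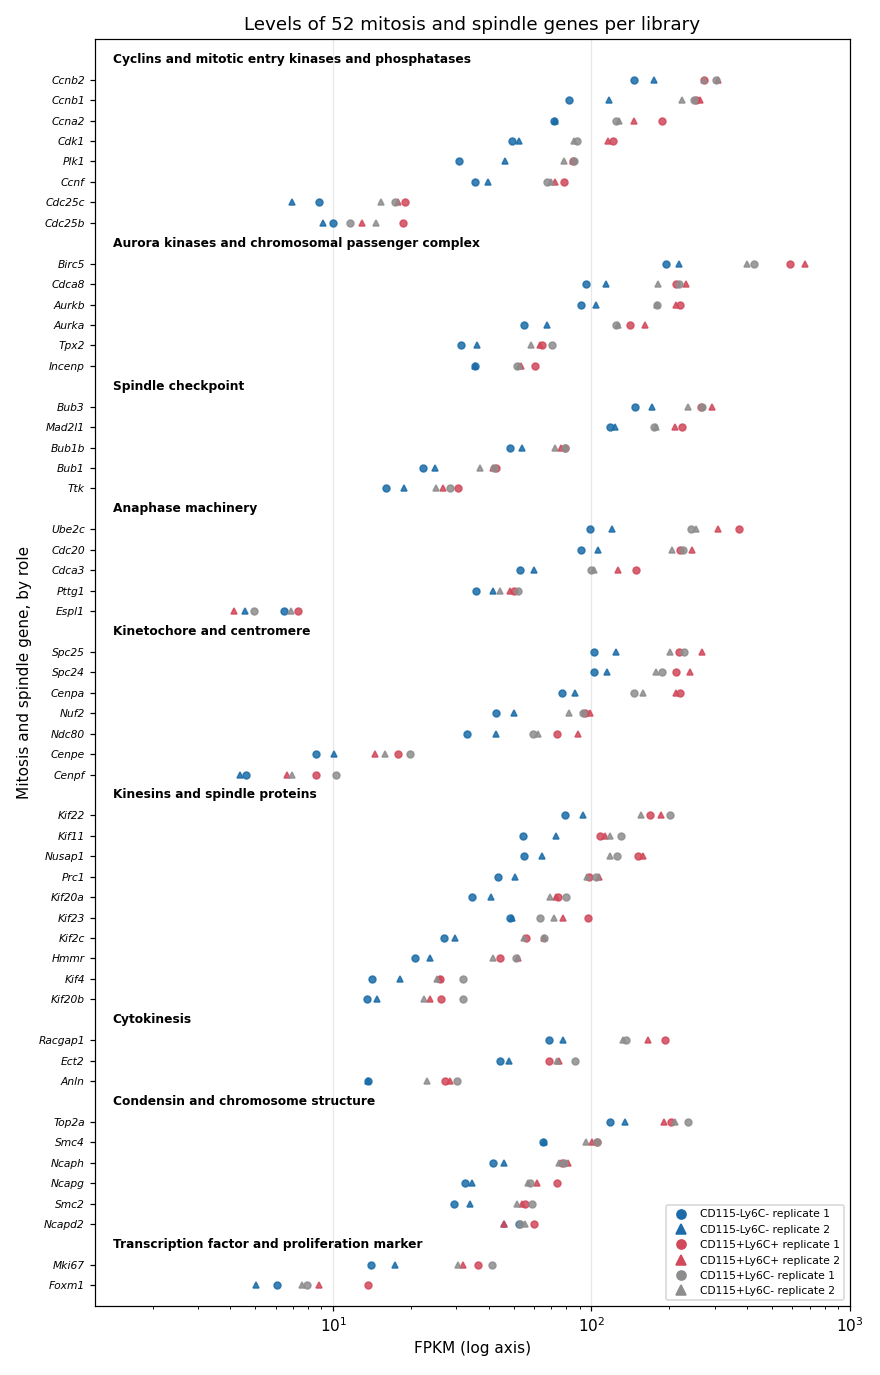
FPKM (fragments set to transcript length and library size, log axis) of each of the 52 genes in each library, grouped by role. Circles are replicate 1 and triangles replicate 2 of CD115-Ly6C- (blue), CD115+Ly6C+ (red) and CD115+Ly6C- (grey), and the blue points lie left of the others in nearly every row, Espl1 and Ncapd2 apart.

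Aurora kinases and the chromosomal passenger complex, which correct faulty attachments of chromosomes and prepare cytokinesis, fell in 6 of 6 genes in both comparisons, with medians of -1.06 and -1.31. Aurka, the Aurora kinase of spindle poles, had 87.2 and 110.1 CPM in CD115-Ly6C-, 257 and 300.5 CPM in CD115+Ly6C+ and 219 and 221 CPM in CD115+Ly6C-, with log2 fold changes of -1.16 (SE 0.14) and -1.50 (SE 0.14) in CD115-Ly6C- against CD115+Ly6C- and CD115+Ly6C+, at an edgeR adjusted p of 0.00198 and 1.25e-04. Tpx2, which activates Aurora A on the spindle, had 115 and 137 CPM in CD115-Ly6C-, 272 and 274 CPM in CD115+Ly6C+ and 289 and 236 CPM in CD115+Ly6C-. Aurkb, the kinase subunit of the passenger complex, had 151 and 177 CPM in CD115-Ly6C-, 416 and 414 CPM in CD115+Ly6C+ and 329 and 326 CPM in CD115+Ly6C-. Incenp, its scaffold, had 105 and 109 CPM in CD115-Ly6C-, 205 and 187 CPM in CD115+Ly6C+ and 169.9 and 172 CPM in CD115+Ly6C-, and Cdca8 (borealin), which helps place the complex at centromeres, had 127 and 155 CPM in CD115-Ly6C-, 325 and 363 CPM in CD115+Ly6C+ and 322 and 265 CPM in CD115+Ly6C-. In each of these 5 genes the CD115-Ly6C- libraries were the lowest, while the CD115+ subsets differed by log2 fold changes of 0.06 to 0.34, none past the threshold. Incenp showed the smallest fall of the group, -0.67 (SE 0.10) and -0.87 (SE 0.10).

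The spindle checkpoint, which holds the cell in metaphase until every chromosome is attached, fell in 5 of 5 genes in both comparisons, with medians of -0.73 and -0.997. Bub3, a scaffold of the checkpoint at kinetochores, had 260.4 and 311 CPM in CD115-Ly6C-, 534 and 606 CPM in CD115+Ly6C+ and 524 and 457 CPM in CD115+Ly6C-. Bub1b, which encodes BubR1 of the mitotic checkpoint complex, had 154 and 177 CPM in CD115-Ly6C-, 289 and 286 CPM in CD115+Ly6C+ and 281 and 253 CPM in CD115+Ly6C-, and Bub1, a kinase that recruits other checkpoint proteins, had 84.9 and 97.2 CPM in CD115-Ly6C-, 186 and 187 CPM in CD115+Ly6C+ and 179 and 155 CPM in CD115+Ly6C-. The CD115-Ly6C- libraries were the lowest in all 3. Mad2l1, the inhibitor that binds Cdc20, had 176 and 189.6 CPM in CD115-Ly6C-, 383 and 363 CPM in CD115+Ly6C+ and 288 and 289 CPM in CD115+Ly6C-, and Ttk (Mps1), the kinase at the top of the checkpoint, had 40.9 and 48.3 CPM in CD115-Ly6C-, 89.4 and 80.4 CPM in CD115+Ly6C+ and 79.6 and 68.6 CPM in CD115+Ly6C-. Their log2 fold changes against CD115+Ly6C- were -0.66 (SE 0.10) and -0.73 (SE 0.14) (edgeR adjusted p = 0.00486 and 0.0119). Some of these calls were lost with a library left out, at log2 fold changes of -0.68 to -0.59: Bub1b, Bub3 and Ttk did not pass against CD115+Ly6C- without CD115+Ly6C- replicate 1 (edgeR adjusted p = 0.0556, 0.0631 and 0.0891), nor did these 3 and Mad2l1 without CD115-Ly6C- replicate 1 (0.0698, 0.0627, 0.0989 and 0.0592).

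The genes of anaphase onset differed among themselves. Cdc20, the activator of the anaphase promoting complex that the checkpoint inhibits, had 135 and 163 CPM in CD115-Ly6C-, 373 and 427 CPM in CD115+Ly6C+ and 372 and 334 CPM in CD115+Ly6C-, and Ube2c and Cdca3 behaved as given above. Cdc20 fell by 1.24 (SE 0.13) against CD115+Ly6C- and by 1.42 (SE 0.13) against CD115+Ly6C+ on the log2 scale (edgeR adjusted p = 0.00136 and 1.22e-04). Securin and separase, the inhibitor and protease that control the cleavage of cohesin, moved less. Pttg1 (securin) had 19.7 and 24.1 CPM in CD115-Ly6C-, 31.8 and 30.5 CPM in CD115+Ly6C+ and 32.1 and 26.5 CPM in CD115+Ly6C-, a log2 fold change of -0.42 (SE 0.17) against CD115+Ly6C- (edgeR adjusted p = 0.125) and of -0.51 (SE 0.17) against CD115+Ly6C+ (edgeR adjusted p = 0.0415). The call against CD115+Ly6C+ was lost in 7 of 17 alternatives, with an edgeR adjusted p of 0.154 under library totals and 0.966 with the length trend taken out. Espl1 (Entrez gene 105988, chromosome 15, 102296254 to 102324357), the separase gene, had 38.8 and 27.8 CPM in CD115-Ly6C-, 50.01 and 28.7 CPM in CD115+Ly6C+ and 32.7 and 44.7 CPM in CD115+Ly6C-, so its libraries overlapped between all subsets. Its log2 fold changes were -0.22 (SE 0.28) and -0.24 (SE 0.28) (edgeR adjusted p = 0.629 and 0.515), with the widest SE of the members.

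Kinetochore genes, whose products tie spindle fibres to centromeres, fell in 7 of 7 in both comparisons, with medians of -1.03 and -1.25. Ndc80, Nuf2, Spc24 and Spc25 encode the 4 subunits of the Ndc80 complex, the main coupler to microtubules. Ndc80 had 61.3 and 81.9 CPM in CD115-Ly6C-, 157 and 193 CPM in CD115+Ly6C+ and 122 and 126 CPM in CD115+Ly6C-, and Nuf2 had 89.7 and 109 CPM in CD115-Ly6C-, 228 and 243 CPM in CD115+Ly6C+ and 216 and 189 CPM in CD115+Ly6C-. Spc24 had 112 and 129.9 CPM in CD115-Ly6C-, 267 and 309.8 CPM in CD115+Ly6C+ and 228 and 214 CPM in CD115+Ly6C-, and Spc25 had 117 and 147 CPM in CD115-Ly6C-, 287 and 362 CPM in CD115+Ly6C+ and 291 and 253 CPM in CD115+Ly6C-. All 4 subunits were lowest in CD115-Ly6C-, with log2 fold changes from -1.04 to -0.79 against CD115+Ly6C- and from -1.29 to -1.25 against CD115+Ly6C+. The fall of Ndc80 against CD115+Ly6C- was the smallest of the 4 and did not pass without CD115+Ly6C- replicate 1, CD115+Ly6C- replicate 2 or CD115-Ly6C- replicate 1 (edgeR adjusted p = 0.0789, 0.0681 and 0.0953). Cenpe, a kinesin of the kinetochore, had 60.2 and 72.6 CPM in CD115-Ly6C-, 142 and 119 CPM in CD115+Ly6C+ and 154 and 122 CPM in CD115+Ly6C-, and Cenpf, a large kinetochore protein, had 46.0 and 45.1 CPM in CD115-Ly6C-, 99.0 and 78.1 CPM in CD115+Ly6C+ and 114 and 76.0 CPM in CD115+Ly6C-. Within CD115+Ly6C- replicate 1 held more of both than replicate 2, and without it Cenpf did not pass against CD115+Ly6C- (edgeR adjusted p = 0.0701).

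The 10 kinesins and spindle proteins all fell in both comparisons, with medians of -1.13 and -1.20, and 0 of 10 passed between the CD115+ subsets (edgeR, 7 positive and 3 negative log2 fold changes). Kif11 (Eg5), the motor that pushes spindle poles apart, had 233 and 320.1 CPM in CD115-Ly6C-, 531 and 569 CPM in CD115+Ly6C+ and 622 and 555 CPM in CD115+Ly6C-. Kif2c (MCAK), which takes microtubules apart at centromeres, had 65.4 and 74.3 CPM in CD115-Ly6C-, 156 and 188 CPM in CD115+Ly6C+ and 177 and 147 CPM in CD115+Ly6C-, and Kif22, which moves chromosome arms, had 138 and 167 CPM in CD115-Ly6C-, 338 and 381 CPM in CD115+Ly6C+ and 392 and 298 CPM in CD115+Ly6C-. These motors were lowest in both CD115-Ly6C- libraries. Kif20a and Kif20b, kinesins of the central spindle and of cytokinesis, had 104 and 127 CPM in CD115-Ly6C-, 257 and 259 CPM in CD115+Ly6C+ and 268 and 229.8 CPM in CD115+Ly6C- for Kif20a, and 64.7 and 73.3 CPM in CD115-Ly6C-, 143 and 134 CPM in CD115+Ly6C+ and 170.1 and 118 CPM in CD115+Ly6C- for Kif20b. Kif4, a chromosome-bound kinesin that also works at the midzone, had 59.0 and 77.3 CPM in CD115-Ly6C-, 124 and 127 CPM in CD115+Ly6C+ and 147 and 115 CPM in CD115+Ly6C-, and Kif23, the motor subunit of centralspindlin, had 139.7 and 146 CPM in CD115-Ly6C-, 316 and 259.8 CPM in CD115+Ly6C+ and 201 and 224 CPM in CD115+Ly6C-. Kif23 showed the smallest fall of the 10 against CD115+Ly6C-, -0.58 (SE 0.12) (edgeR adjusted p = 0.0196). It did not pass without CD115+Ly6C- replicate 1 or 2 or either CD115-Ly6C- library (edgeR adjusted p = 0.0584 to 0.132), and Kif4 did not pass without CD115+Ly6C- replicate 1 (0.0674). Among the spindle proteins that are not motors, Nusap1, which binds and steadies spindle microtubules, had 139 and 168 CPM in CD115-Ly6C-, 439 and 471 CPM in CD115+Ly6C+ and 355 and 328 CPM in CD115+Ly6C-. Hmmr, a hyaluronan receptor that also binds the spindle, had 71.4 and 83.8 CPM in CD115-Ly6C-, 174 and 209 CPM in CD115+Ly6C+ and 194 and 156 CPM in CD115+Ly6C-, and Prc1, which bundles midzone microtubules, had 114 and 136 CPM in CD115-Ly6C-, 293 and 328 CPM in CD115+Ly6C+ and 300.4 and 275 CPM in CD115+Ly6C-. Nusap1 had the largest fall of the 10 against CD115+Ly6C+, -1.57 (SE 0.12) (edgeR adjusted p = 6.04e-05).

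Cytokinesis genes fell in 3 of 3 in both comparisons. Beside Racgap1, Anln (anillin), a scaffold of the contractile ring, had 65.8 and 67.7 CPM in CD115-Ly6C-, 150.2 and 159.9 CPM in CD115+Ly6C+ and 162 and 122 CPM in CD115+Ly6C-, and Ect2, the exchange factor that activates RhoA at the cell equator, had 157 and 175 CPM in CD115-Ly6C-, 277 and 309 CPM in CD115+Ly6C+ and 338 and 285 CPM in CD115+Ly6C-. Their log2 fold changes were -1.09 (SE 0.14) and -0.91 (SE 0.13) against CD115+Ly6C- (edgeR adjusted p = 0.00273 and 0.00329). Neither differed between the CD115+ subsets past the threshold (0.12 (SE 0.14) and -0.09 (SE 0.12)).

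Condensin, the complex that compacts mitotic chromosomes, and topoisomerase II alpha fell in 5 of 6 genes in both comparisons. Top2a (Entrez gene 21973, chromosome 11, 98992947 to 99024199), the topoisomerase that untangles sister chromatids, had 559 and 665 CPM in CD115-Ly6C-, 1109 and 1069.7 CPM in CD115+Ly6C+ and 1251 and 1100.0 CPM in CD115+Ly6C-, the highest counts of any member. Its log2 fold changes were -0.94 (SE 0.12) and -0.83 (SE 0.12) in CD115-Ly6C- and -0.11 (SE 0.12) between the CD115+ subsets (edgeR adjusted p = 0.00278, 0.00118 and 0.595). The ATPase subunits Smc2 and Smc4, which both condensin complexes use, had 144 and 170.1 CPM in CD115-Ly6C-, 309 and 309.6 CPM in CD115+Ly6C+ and 319.7 and 276 CPM in CD115+Ly6C- for Smc2 and 248 and 258 CPM in CD115-Ly6C-, 459 and 448 CPM in CD115+Ly6C+ and 446 and 399 CPM in CD115+Ly6C- for Smc4. The condensin I subunits Ncaph and Ncapg had 96.0 and 109 CPM in CD115-Ly6C-, 205 and 221 CPM in CD115+Ly6C+ and 202 and 191 CPM in CD115+Ly6C- for Ncaph and 105 and 114 CPM in CD115-Ly6C-, 272 and 234 CPM in CD115+Ly6C+ and 207 and 201 CPM in CD115+Ly6C- for Ncapg. In these 5 genes both CD115-Ly6C- libraries lay below the other 4. Ncapd2, another condensin I subunit, had 208 and 188 CPM in CD115-Ly6C-, 275 and 214 CPM in CD115+Ly6C+ and 235 and 243 CPM in CD115+Ly6C-. Both of its CD115-Ly6C- libraries were again the lowest, but the differences of -0.27 (SE 0.13) and -0.30 (SE 0.13) did not pass (edgeR adjusted p = 0.201 and 0.106).

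Mki67 (Entrez gene 17345, chromosome 7, 135689784 to 135716450), the gene of the proliferation marker Ki-67, had 119 and 149.6 CPM in CD115-Ly6C-, 351 and 311 CPM in CD115+Ly6C+ and 383 and 279 CPM in CD115+Ly6C-. It fell against both CD115+ subsets (log2 fold changes -1.30 (SE 0.17) and -1.30 (SE 0.17), edgeR adjusted p = 0.00302 and 7.12e-04), and its mean differed little between the CD115+ subsets, at 331 ± 28.3 CPM in CD115+Ly6C+ and 331 ± 73.0 CPM in CD115+Ly6C- (SD, n = 2 each). Foxm1, the transcription factor of many of these genes, was one of the least abundant members, at 23.4 and 19.9 CPM in CD115-Ly6C-, 60.4 and 40.0 CPM in CD115+Ly6C+ and 34.1 and 32.1 CPM in CD115+Ly6C-. It fell against CD115+Ly6C+ by 1.22 (SE 0.20) on the log2 scale (edgeR adjusted p = 0.00216). Its differences of -0.61 (SE 0.20) against CD115+Ly6C- and 0.60 (SE 0.20) in CD115+Ly6C+ against CD115+Ly6C- did not pass (edgeR adjusted p = 0.0751 and 0.0924), although both did with DESeq2.

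Set per transcript length, as FPKM, the members stood above the typical gene. Their median level was 46.7 FPKM in CD115-Ly6C-, 83.0 FPKM in CD115+Ly6C+ and 78.3 FPKM in CD115+Ly6C-, while the median over all genes tested was 11.2 FPKM in CD115-Ly6C-, 8.92 FPKM in CD115+Ly6C+ and 9.45 FPKM in CD115+Ly6C-. Birc5 was the most abundant in each subset, with 207 ± 17.0 FPKM in CD115-Ly6C-, 628 ± 60.5 FPKM in CD115+Ly6C+ and 414 ± 16.2 FPKM in CD115+Ly6C- (SD, n = 2 each), and its libraries did not overlap those of the next gene. Next came Ccnb2 in CD115-Ly6C-, at 161 ± 20.3 FPKM, Ube2c in CD115+Ly6C+, at 341 ± 46.0 FPKM, and Ccnb2 in CD115+Ly6C-, at 289.5 ± 21.9 FPKM. The lowest were Cenpf in CD115-Ly6C- (4.47 ± 0.148 FPKM) and Espl1 in CD115+Ly6C+ (5.70 ± 2.23 FPKM) and CD115+Ly6C- (5.89 ± 1.36 FPKM). Most of the order in between was not resolved, since the libraries of neighbours overlapped in 44 of 51 pairs in CD115-Ly6C-, 38 pairs in CD115+Ly6C+ and 38 pairs in CD115+Ly6C-.

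The median difference between the libraries of a subset was smaller than that of CD115-Ly6C- from either CD115+ subset, but in CD115-Ly6C- and CD115+Ly6C- it was close in size to the 0.18 between the CD115+ subsets. In CD115-Ly6C-, replicate 2 stood above replicate 1 for 46 of 52 members, with a median log2 ratio of 0.23, where the median over all genes was 0.01. In CD115+Ly6C-, replicate 2 stood below replicate 1 for 39 of 52, with a median of -0.16. In CD115+Ly6C+ the members split evenly, 26 each way. Most members thus deviated together within CD115-Ly6C- and within CD115+Ly6C-. Without CD115+Ly6C- replicate 1 the count that fell in CD115-Ly6C- against CD115+Ly6C- was 40 of 52, and without CD115-Ly6C- replicate 1 it was 41, while over the 6 libraries left out in turn it ranged from 40 to 49.

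Other genes of mitosis moved the same way in CD115-Ly6C-. Of 83 further mitotic genes, listed by function, 57 fell and 1 rose in CD115-Ly6C- against CD115+Ly6C- (median -0.62), and 65 fell and 1 rose against CD115+Ly6C+ (median -0.82). In CD115+Ly6C+ against CD115+Ly6C-, 6 (7.23%) rose and 1 fell (median 0.11), where 5.26% of all genes rose and 4.34% fell. The share that rose was thus near that of all genes. The count that fell against CD115+Ly6C- was 24 without CD115+Ly6C- replicate 1 and 25 without CD115-Ly6C- replicate 1. The 6 that rose in CD115+Ly6C+ became 0 without CD115+Ly6C- replicate 1 or CD115+Ly6C+ replicate 1, 1 without CD115+Ly6C+ replicate 2 and 2 without CD115+Ly6C- replicate 2. Ska3, of the Ska complex that holds kinetochores on microtubules, had 32.2 and 38.3 CPM in CD115-Ly6C-, 90.1 and 102 CPM in CD115+Ly6C+ and 81.0 and 78.8 CPM in CD115+Ly6C-. Its log2 fold changes in CD115-Ly6C- were -1.18 (SE 0.13) and -1.45 (SE 0.13) against CD115+Ly6C- and CD115+Ly6C+, at an edgeR adjusted p of 0.00157 and 1.22e-04. Cenpl, of the constitutive centromere network, had 38.1 and 46.8 CPM in CD115-Ly6C-, 111 and 119 CPM in CD115+Ly6C+ and 89.9 and 87.3 CPM in CD115+Ly6C-, and Kif15, a kinesin that can share the work of Kif11, had 83.2 and 98.0 CPM in CD115-Ly6C-, 188 and 178 CPM in CD115+Ly6C+ and 187 and 166 CPM in CD115+Ly6C-. Both were lowest in CD115-Ly6C-. Mis18a, which helps load Cenpa, had 74.2 and 77.9 CPM in CD115-Ly6C-, 171 and 176 CPM in CD115+Ly6C+ and 111 and 124 CPM in CD115+Ly6C-, and Cks2, a small subunit of Cdk1 complexes, had 159 and 163 CPM in CD115-Ly6C-, 380.2 and 349 CPM in CD115+Ly6C+ and 230.0 and 266 CPM in CD115+Ly6C-. Both of these also rose in CD115+Ly6C+ against CD115+Ly6C- (0.56 (SE 0.11) and 0.56 (SE 0.11), edgeR adjusted p = 0.0172 and 0.0216), as Cenpp, Melk, Cks1b and Tubb4b did. The exception in CD115-Ly6C- was Numa1, a spindle pole protein that is nuclear in interphase, which rose against both. Ckap5, a microtubule polymerase, was the 1 gene that fell in CD115+Ly6C+ against CD115+Ly6C-.

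Complexes that work in mitosis but whose subunits are mostly made throughout the cell cycle gave smaller counts, read here against 6.78% lower and 8.43% higher over all genes in CD115-Ly6C- against CD115+Ly6C- and 19.2% lower and 20.1% higher against CD115+Ly6C+. Of 17 genes of the anaphase promoting complex and its regulators, 1 (5.88%) passed as lower in CD115-Ly6C- against CD115+Ly6C-, a share near that of all genes. It was Fbxo5 (Emi1), an inhibitor of the complex. Yet 16 of the 17 log2 fold changes were negative, with a median of -0.31. At an edgeR unadjusted p under 0.05, 10 of the 17 were lower, where 15.4% of all genes were. Both CD115-Ly6C- libraries lay below both CD115+Ly6C- libraries for 14 of the 17, where 29.8% of all genes did. Fbxo5 had 60.2 and 74.4 CPM in CD115-Ly6C-, 149.8 and 151 CPM in CD115+Ly6C+ and 127 and 125 CPM in CD115+Ly6C-, with a log2 fold change of -0.91 (SE 0.12) (edgeR adjusted p = 0.00314). Against CD115+Ly6C+, 9 of the 17 (52.9%) fell and 1 (Anapc1) rose. Of 12 cohesin genes, Esco2 and Rad21 fell in both comparisons, and Esco1 and Mau2 rose against CD115+Ly6C+. The shares against CD115+Ly6C+, 16.7% lower and 16.7% higher, were near those of all genes. Esco2, the acetyltransferase that makes cohesion in S phase, had 49.3 and 52.5 CPM in CD115-Ly6C-, 115 and 122 CPM in CD115+Ly6C+ and 99.5 and 90.7 CPM in CD115+Ly6C-. Of 13 genes of MuvB, B-Myb and the DREAM complex, 1 rose (Tfdp2) and 1 fell (Rbl1) against CD115+Ly6C-, 7.69% each and near the shares of all genes. Against CD115+Ly6C+, 2 (15.4%) rose and 5 (38.5%) fell, where 20.1% of all genes rose and 19.2% fell. Mybl2, the gene of B-Myb, was among those 5 and had 49.0 and 26.3 CPM in CD115-Ly6C-, 83.5 and 62.2 CPM in CD115+Ly6C+ and 41.6 and 37.2 CPM in CD115+Ly6C-, and Lin9 of the MuvB core had 50.6 and 53.9 CPM in CD115-Ly6C-, 60.9 and 60.8 CPM in CD115+Ly6C+ and 60.2 and 59.8 CPM in CD115+Ly6C- with no call. How these shares differ from that of the members was not tested.

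Genes of DNA replication, which mark S phase, had medians nearer 0 than the mitotic genes. Of 40, 15 (37.5%) fell in CD115-Ly6C- against CD115+Ly6C- (median -0.29), where 6.78% of all genes did. Against CD115+Ly6C+, 20 (50%) fell and 4 (10%) rose (median -0.44), where 19.2% and 20.1% of all genes did. In CD115+Ly6C+ against CD115+Ly6C-, 2 (5%) rose and 4 (10%) fell (median -0.04), where 5.26% and 4.34% of all genes did. Tk1, the thymidine kinase, had 129 and 137 CPM in CD115-Ly6C-, 339.6 and 366 CPM in CD115+Ly6C+ and 242 and 239 CPM in CD115+Ly6C-, with log2 fold changes of -0.85 (SE 0.10) and -1.40 (SE 0.10) in CD115-Ly6C- (edgeR adjusted p = 0.00201 and 4.37e-05). Rrm1, a subunit of ribonucleotide reductase, had 757 and 832 CPM in CD115-Ly6C-, 1115 and 1127 CPM in CD115+Ly6C+ and 1238 and 1176 CPM in CD115+Ly6C-. Mcm4, of the replicative helicase, had 369 and 398 CPM in CD115-Ly6C-, 309 and 327 CPM in CD115+Ly6C+ and 466 and 444 CPM in CD115+Ly6C- and was lower in CD115+Ly6C+ than in CD115+Ly6C-. Summed over the 40 genes, the level was 9485 and 10214 CPM in CD115-Ly6C-, 11221 and 12051 CPM in CD115+Ly6C+ and 12571 and 12088 CPM in CD115+Ly6C-. The sum over the 52 mitosis genes, divided by the sum over these 40, was 0.659 and 0.713 for the CD115-Ly6C- libraries, 1.35 and 1.27 for the CD115+Ly6C+ libraries and 1.11 and 1.04 for the CD115+Ly6C- libraries. The ratio thus separated the 3 subsets without overlap, and was lowest in CD115-Ly6C-.

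**Figure D3:**
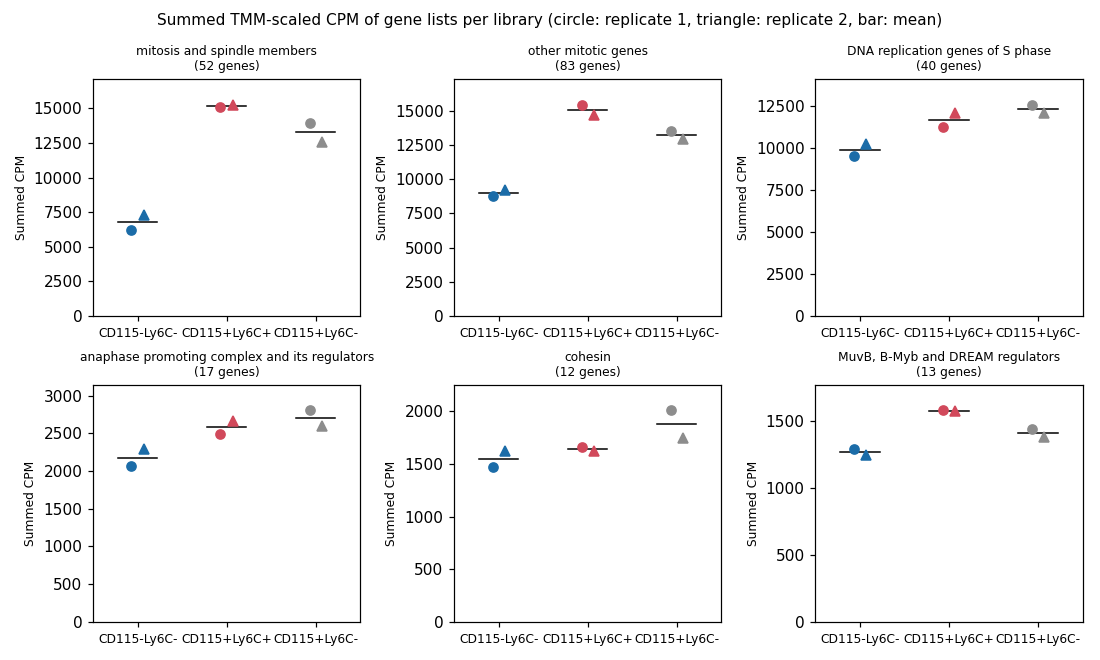
Summed TMM-scaled CPM of 6 gene lists in each library (circle, replicate 1; triangle, replicate 2; bar, mean of the 2), with axes from 0. The members sum to 6249 and 7285 CPM in CD115-Ly6C- and to 15140 and 15284 CPM in CD115+Ly6C+, and the S phase genes differ by less.

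**Figure D4:**
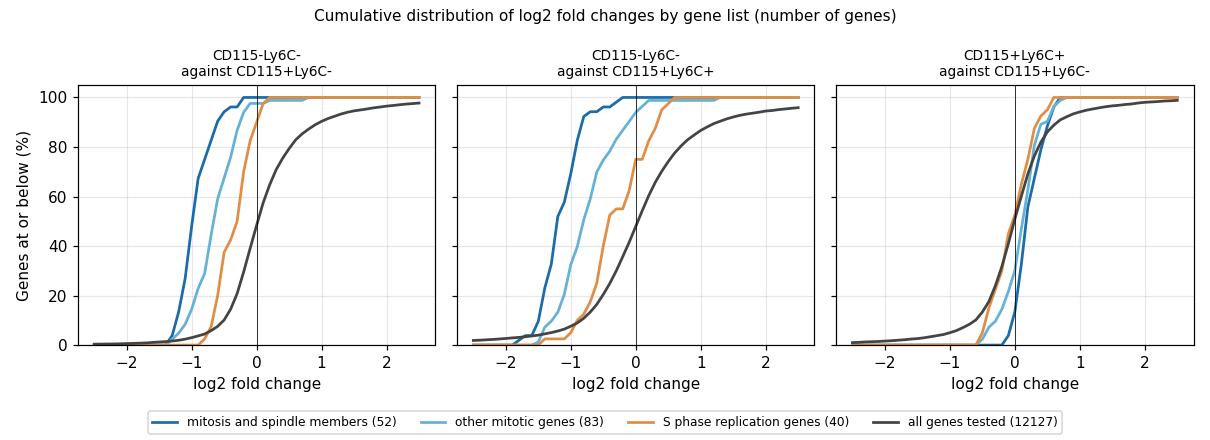
Cumulative share (%) of genes at or below a log2 fold change, for the 52 members, 83 other mitotic genes, 40 S phase genes and all 12127 genes tested, in the 3 comparisons. In the left and middle panels the curve of the members lies farthest left (medians -0.99 and -1.21), then the other mitotic genes (-0.62 and -0.82), the S phase genes (-0.29 and -0.44) and all genes (0.02 and 0.03).

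Markers of several other cell types differed between the subsets. Of all genes, 8.43% rose and 6.78% fell in CD115-Ly6C- against CD115+Ly6C-, and 20.1% rose and 19.2% fell against CD115+Ly6C+. In CD115+Ly6C+ against CD115+Ly6C-, 5.26% of all genes rose. Of 11 early lymphoid genes tested, 8 rose in CD115-Ly6C- in both comparisons, and the list summed to 3805 and 3428 CPM in CD115-Ly6C-, 162 and 190 CPM in CD115+Ly6C+ and 560 and 634 CPM in CD115+Ly6C-. Dntt, which adds bases at V(D)J joints, led it, with 2936 and 2540.3 CPM in CD115-Ly6C-, 33.6 and 45.1 CPM in CD115+Ly6C+ and 281 and 385 CPM in CD115+Ly6C-. Of 12 stem cell genes, 9 were tested, as Tek, Esam and Slamf1 did not pass the filter on low counts. Of the 9, 8 rose in CD115-Ly6C- in both, with sums of 1699 and 1624 CPM in CD115-Ly6C-, 648 and 602 CPM in CD115+Ly6C+ and 1231 and 1075 CPM in CD115+Ly6C-. Mecom, among the 8, passed the filter through CD115-Ly6C- alone, at 2.42 and 2.64 CPM there and 0.157 and 0.0531 CPM in CD115+Ly6C-. It could thus be tested only because it was high in CD115-Ly6C-. Of 11 monocyte genes, 8 fell in CD115-Ly6C- against CD115+Ly6C- and 11 against CD115+Ly6C+, with sums of 1051 and 1347 CPM in CD115-Ly6C-, 7439 and 8047 CPM in CD115+Ly6C+ and 3036 and 3222 CPM in CD115+Ly6C-. Ly6c2, a gene of the sorted Ly6C, is among the 8 and the 11, and its fall against CD115+Ly6C+ was built into the sort. It made up 1439 and 1400 CPM of the sums in CD115+Ly6C+. Of 14 genes of late neutrophil granules, 1 (7.14%) passed as lower in CD115-Ly6C- against CD115+Ly6C-, a share near that of all genes. Yet 13 of the 14 log2 fold changes were negative, with a median of -1.42. At an edgeR unadjusted p under 0.05, 8 of the 14 were lower, where 15.4% of all genes were. Both CD115-Ly6C- libraries lay below both CD115+Ly6C- libraries for 2 of the 14, where 29.8% of all genes did. All 14 fell against CD115+Ly6C+, and 11 rose in CD115+Ly6C+ against CD115+Ly6C-. Their sums were 322 and 154 CPM in CD115-Ly6C-, 4313 and 4047 CPM in CD115+Ly6C+ and 237 and 948 CPM in CD115+Ly6C-, so the CD115+Ly6C- libraries differed from each other. Erythroid genes summed to 374 and 383 CPM in CD115-Ly6C-, 254 and 213 CPM in CD115+Ly6C+ and 312 and 297 CPM in CD115+Ly6C-. Of 9 tested, 2 (22.2%) rose in CD115-Ly6C- in each comparison, near the share of all genes against CD115+Ly6C+. Pax5 was at 0 in both CD115+ subsets, Mecom and Alas2 were at 0 in CD115+Ly6C+, and Epor was at 0 in CD115-Ly6C- and CD115+Ly6C-. The part of these cell types in the difference of the mitotic genes was not tested.

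Among genes outside the 52, those whose pattern over the 6 libraries was most like the mean of the members (Pearson's r of log2 CPM, a description over 3 subsets of 2 libraries) were Pjvk, Dnph1, Pxylp1, Trip13 and Cenpw, with r of 0.996 or above. Trip13, which takes apart the checkpoint complex, had 54.7 and 56.1 CPM in CD115-Ly6C-, 109.5 and 106 CPM in CD115+Ly6C+ and 96.5 and 90.8 CPM in CD115+Ly6C-, and Cenpw, of the centromere network, had 15.3 and 16.5 CPM in CD115-Ly6C-, 32.2 and 29.9 CPM in CD115+Ly6C+ and 27.1 and 26.5 CPM in CD115+Ly6C-. Dnph1, a nucleotide hydrolase, had 32.8 and 35.1 CPM in CD115-Ly6C-, 57.5 and 55.9 CPM in CD115+Ly6C+ and 53.2 and 49.1 CPM in CD115+Ly6C-. Pjvk was under 1 CPM in every library.

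Of the members, 9 overlap another protein-coding gene in their genomic span, and the strandedness of the libraries is not stated, so reads in shared exons could not be assigned with certainty. They are Ccna2, Aurka, Cdc20, Kif20a, Nusap1, Prc1, Anln, Ncapg and Foxm1.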

How the data were processed

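RNA was measured in 6 libraries of polyadenylated RNA, 2 from each of 3 sorted subsets of mouse common dendritic cell progenitors. Per the submitters' processing notes, reads were processed with Bowtie2 and RSEM on mm10; no version is given in the sources used here. The deposited table of a sample holds, per the file headers, RSEM expected counts, which are estimated, and FPKM, and leaves out genes without reads, which were taken as 0. Of the deposited expected counts, 12.6% were not whole (tolerance 1e-06). Symbols and coordinates of the members were matched to RefSeq's GRCm38.p6, the assembly of mm10, by Entrez identifier.

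Expected counts were rounded and tested in R 4.3.3 with edgeR 4.0.16. The filter filterByExpr (minimum count 10, minimum total 15) left 12127 genes, which were scaled by TMM. All 6 libraries entered 1 quasi-likelihood fit with the subset as the sole term, and each pair of subsets was compared. The p-values were adjusted by Benjamini-Hochberg over all genes tested (threshold 0.05). The biological coefficient of variation was 15.2%. Standard errors of log2 fold changes are their absolute values divided by the root of F. FPKM served to compare levels between genes and, in the limma alternatives, to test differences between subsets. Depth was 17961541 to 19450329 counts per library, and no molecular identifiers are mentioned, so counts are not independent molecules.

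The members and the other gene lists were chosen with earlier results of these data known. All 52 members may be named, and of each other list up to 4 genes with the smallest adjusted p. Beyond these, Csf1r, Lin9, Mybl2 and genes in counts of 6 or fewer were named after their values were seen. Medians and counts over a list are descriptions, with no test of the list. The edgeR calls were tried on simulated counts for CD115+Ly6C+ against CD115+Ly6C-, with changes larger than those called there among the members. Smaller changes and the counts over lists were not simulated. Alternatives were library totals, DESeq2's size factors, other count filters, DESeq2 1.42.0, limma 3.58.1 on log2(FPKM + 1) and log2(FPKM + 0.1), a fit of only the 4 libraries compared, a replicate block, removal of the trend with transcript length, and each library left out in turn.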

Additional observations from a re-analysis of the deposited data

How the results depend on the processing

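The direction of the members' median held in every alternative run, and no gene's call reversed. For CD115-Ly6C- against CD115+Ly6C+, 49 of the 50 genes called kept their call under all 17 alternatives, Pttg1 being the exception. For CD115-Ly6C- against CD115+Ly6C-, 39 of 47 did, and the others lost it only where a library was left out. For CD115+Ly6C+ against CD115+Ly6C-, 0 of 7 did. There, the members that rose numbered 4 with library totals, 12 with no filter on low counts, 14 with DESeq2, 5 with limma on log2(FPKM + 1), 4 with the length trend removed and 0 to 6 with a library left out. Over all genes, 986 rose with no filter and 952 with DESeq2, against 638 in the main fit. The cause of these changes in count was not tested.

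The members' median log2 fold change in CD115-Ly6C- against CD115+Ly6C+ was -1.02 with library totals, -0.98 with limma on log2(FPKM + 1) and -1.01 on log2(FPKM + 0.1), and 2 of the other mitotic genes rose in each of these. In CD115+Ly6C+ against CD115+Ly6C- the median was 0.12 with library totals, 0.10 and 0.10 with limma, 0.23 with the length trend removed, and 0.094 to 0.27 with a library left out. Of the other mitotic genes in that comparison, 10 rose with DESeq2, 1 rose and 0 fell with the length trend removed, 2 fell with no filter and with limma at either pseudocount, and with a library left out 0 to 6 rose and 0 to 1 fell. In CD115-Ly6C- against CD115+Ly6C-, 24 to 56 of them fell and 0 to 1 rose with a library left out.

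Replicate numbers 1 and 2 are shared between subsets, but same-numbered libraries did not deviate together in every pair (r = -0.004, -0.01 and 0.152). With 2 libraries a subset, these values cannot tell whether same-numbered libraries share a mouse or a sort. With a replicate block, 47 and 49 members fell in CD115-Ly6C- against CD115+Ly6C- and CD115+Ly6C+, and 3 rose in CD115+Ly6C+ against CD115+Ly6C-, where 0 of the other mitotic genes fell. With the block and the length trend removed together, 2 members rose there with a median of 0.22, and 1 of the other mitotic genes rose and 0 fell. With 2 libraries a subset, the spread limits what differences could be detected, so genes without a call are not shown to be alike.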
